A study of Drosophila melanogaster with 6 samples.

Results

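Septate junctions are the barrier junctions of insect epithelia, placed below the adherens junction, and they hold back solutes between neighbouring cells. In the pleated junction of epidermis, trachea, salivary gland, hindgut and surface glia, claudin-like proteins, the Na,K-ATPase and a complex of Neurexin IV, Contactin and Neuroglian are bound to cytoplasmic scaffolds, and Ly6 proteins help to assemble them. Tricellular proteins seal the points where 3 cells meet, and a smooth form of the junction lines the midgut. In the trachea these proteins also set the length and diameter of the tubes.

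The symbols of 30 septate junction components were looked up in the platform annotation of the Affymetrix Drosophila Genome 2.0 array, and each gene was represented by the brightest probe set (the group of short probes read as 1 value) that names it alone. Of the 30, 26 had such a probe set, among 11982 genes so represented on the array. Atpalpha, Fas3 and Mcr were not named for any probe set in that annotation, and were not analysed here. The symbol aka (Anakonda) was found only as a synonym of bark, which was on the list already, so that protein was counted once, as bark. No probe set named a listed gene together with another gene. The 26 genes had 36 probe sets in all, since scrib had 5, dlg1 had 4, Nrg had 3 and mesh had 2.

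RNA was taken from whole embryos of Drosophila melanogaster and read on 6 arrays, of which 3 held wild type and 3 held trh null mutant RNA. The gene trh (trachealess) encodes a bHLH-PAS transcription factor of tracheal, salivary duct and posterior spiracle primordia, and the title of the series concerns its control of tracheal genes. All embryos were collected over 8 h, aged for a further 11 h and passed through a COPAS biosorter; the trh null embryos were those without the GFP of the balancer chromosome, and the labels used here name no allele. Both genotypes were labelled as stage 11 to 16, but the description of the wild type samples ends at stage 17. Nothing in the labels says that arrays of a genotype came from separate collections, and the replicate spread behind every p-value may therefore be technical. In RNA from whole embryos, fewer cells of a type and less RNA per cell cannot be told apart.

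The genotype could not be checked on trh itself, for which no probe set was named alone. Of the 5 tracheal markers, Gasp and btl fell, 2 did not pass, and dysf rose by its brightest probe set while another of its probe sets fell. Over all genes 7.31% fell and 6.79% rose. Every dysf probe set was dim, below the array median of 6.16 to 6.22 on every array. The rise of dysf had a limma adjusted p of 0.0530 to 0.117 when wild type replicate 1 or 1 trh null array was dropped. The summed linear signal of the 5 tracheal markers was 16188 to 20041 in wild type and 10278 to 11894 in trh null arrays. Most of it came from Gasp, serp and verm, with mean log2 signals of 12.26, 12.34 and 11.90, beside 6.29 for btl and 5.60 for dysf. Wild type replicate 2 stood apart, with correlations of 0.979 and 0.976 to the other wild type arrays, which correlated at 0.994 with each other. The log2 ratio of 3' over 5' signal of control probe sets for actin was 1.36 ± 0.09 in wild type and 0.76 ± 0.03 in trh null arrays (SD, n = 3; exact two-sided permutation p = 0.1, the smallest that 3 arrays against 3 allow). This ratio, read on such arrays as a measure of RNA length and labelling, moved with the genotype, and its part in the results was not tested. Of 9 measured genes listed as markers of the early embryo, for segmentation or mesoderm, 5 rose and none fell, where 6.79% of all genes rose. Of the 5, ftz alone passed when trh null replicate 2 or 3 was dropped; with replicate 3 dropped Kr, sna, slp2 and twi had limma adjusted p of 0.0597 to 0.149.

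Few septate junction genes passed the test between the genotypes. Of the 26 genes, pck and M6 rose in trh null embryos, nrv2 and Tsp2A fell, and 22 did not pass the test (limma, Benjamini-Hochberg adjusted p under 0.05 over 18769 probe sets). These 4 are 15.4% of the genes measured, beside 14.1% of all genes, so the count was near the background; 6.79% of all genes rose and 7.31% fell. At an unadjusted p under 0.05 there were 9 of the 26, beside 30.4% of all genes, again near the background. The median log2 difference between trh null and wild type was 0.07 for the 26 genes and 0.00 for all genes. Of the 26, 20 had a 95% interval that lay within a 2-fold change in either direction, and 82.1% of all genes did. The 6 others were nrv2, yrt, scrib, dlg1, l(2)gl and bark. All 26 lay above the array median of 6.16 to 6.22 on every array, with mean log2 signals from 8.73 for bark to 12.77 for Lac. These signals depend on the probes and give no order of RNA levels between genes.

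**Figure D1:**
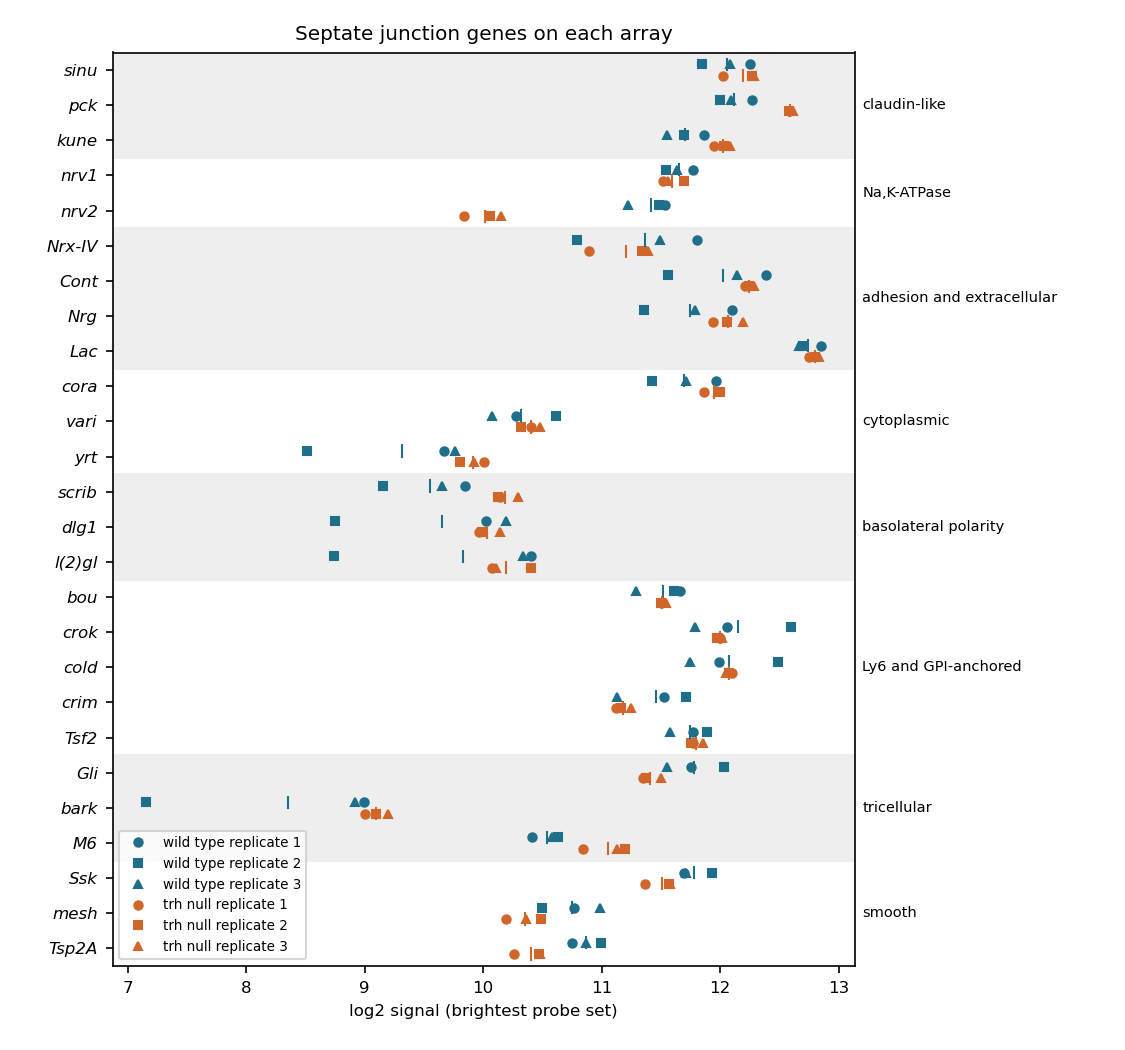
Log2 signal of the 26 septate junction genes (rows, grouped by role) on each of 6 arrays, by the brightest probe set; short vertical bars are means of 3 arrays. The nrv2 values of the trh null arrays, 9.84 to 10.15, lie apart from those of wild type, 11.23 to 11.53, and squares of wild type replicate 2 lie far left for bark, l(2)gl, dlg1 and yrt.

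The largest difference belonged to nrv2, which encodes a beta subunit of the Na,K-ATPase that septate junctions require. Its log2 signal was 11.53, 11.48 and 11.23 in the wild type arrays and 9.84, 10.06 and 10.15 in the trh null arrays. All 3 trh null values lay more than 1 unit below the lowest wild type value. The gene fell by 1.40 on the log2 scale (SE 0.12, 95% interval -1.70 to -1.10, limma adjusted p = 0.00192), which is 2.64-fold. It passed whichever array was dropped (limma adjusted p between 0.00105 and 0.0172). The nrv1 gene, its neighbour on chromosome arm 2L with no protein-coding gene between them, encodes another beta subunit. It read 11.78, 11.55 and 11.64 in wild type and 11.52, 11.70 and 11.56 in trh null arrays, so the genotypes overlapped. Its log2 difference was -0.06 (95% interval -0.28 to 0.17, limma adjusted p = 0.745). The pair of nrv2 and nrv1 was chosen after its values were seen, so its separation adds no further test. Taken within each array, nrv2 minus nrv1 was -0.24 ± 0.17 in wild type and -1.58 ± 0.14 in trh null arrays (SD, n = 3; exact two-sided permutation p = 0.1, the smallest possible, in a family of 4 such pairs). The third gene of the pump, Atpalpha for the catalytic alpha subunit, was not analysed here, and nrv3, a neuronal beta subunit gene, differed by -0.22 (SE 0.33, limma adjusted p = 0.727). The nrv2 gene is known from glia and neurons as well as from epithelia. Of 5 measured glial markers, gcm rose (0.47, SE 0.09; limma adjusted p of 0.0600 to 0.122 if wild type replicate 3 or 1 trh null array is dropped) and 4 did not pass. These 4 were wrapper at -0.81 (SE 0.28), repo at -0.09 (SE 0.17), loco at 0.06 (SE 0.11) and moody at 0.59 (SE 0.35). Every trh null value lay below every wild type value for wrapper, and above every wild type value for gcm and moody. Of all genes 19.4% were lower in that way and 18.8% higher. The summed linear signal of all 5 glial markers was 4173 to 5136 in wild type and 4697 to 5023 in trh null arrays, so these ranges overlapped. None of the 3 measured neuron markers passed, but their summed signal was 887 to 2442 in wild type and 4049 to 4815 in trh null arrays, most of it from elav (difference 1.65, SE 0.48, limma adjusted p = 0.0819). Both measured muscle markers fell, Prm by 1.51 and up by 1.14 on the log2 scale, where 7.31% of all genes fell. Their sum was 5365 to 7304 in wild type and 2376 to 2778 in trh null arrays. All 3 salivary gland markers, fkh, sens and hkb, rose, where 6.79% of all genes rose. Their sums were 787 to 1086 in wild type and 1529 to 1746 in trh null arrays. None of these genes passed when trh null replicate 2 or 3 was dropped (limma adjusted p between 0.0556 and 0.135). Of 3 hemocyte markers Pxn rose by its brightest probe set (0.94, SE 0.08, limma adjusted p = 0.00173) and passed whichever array was dropped. The markers srp at 0.62 (SE 0.29) and Hml at -0.08 (SE 0.10) did not pass. The hemocyte sum was 1602 to 2114 in wild type and 3120 to 3225 in trh null arrays. The part of any of these cells in the fall of nrv2 was not tested.

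Among the 3 claudin-like genes, whose proteins span the membrane and form the barrier and tube size machinery of the junction, pck rose and sinu and kune did not pass. The pck gene, which encodes Megatrachea, read 12.27, 12.00 and 12.10 in wild type and 12.58, 12.58 and 12.61 in trh null arrays. The trh null arrays were nearly equal and all above wild type, a rise of 0.47 (SE 0.09, 1.38-fold, limma adjusted p = 0.0244). For kune (Kune-kune) wild type read 11.87, 11.70 and 11.55 and trh null 11.95, 12.04 and 12.08. These did not overlap either, but the difference of 0.32 (SE 0.10) did not pass (limma adjusted p = 0.104). For sinu (Sinuous) the genotypes overlapped, at 11.85 to 12.25 in wild type and 12.03 to 12.28 in trh null, with a difference of 0.13 (95% interval -0.18 to 0.45). Within each array, pck minus sinu was 0.06 ± 0.08 in wild type and 0.40 ± 0.14 in trh null arrays (SD, n = 3, exact two-sided permutation p = 0.1). That pair too was chosen after its values were seen, so its separation adds no further test. The pck call did not hold when wild type replicate 3 was dropped (limma adjusted p = 0.0631), when trh null replicate 1, 2 or 3 was dropped (0.0959, 0.104 and 0.115), or after cyclic loess normalization (0.0505). Beside pck, the epidermal markers grh and ovo rose, Tb fell and 2 of 5 did not pass. Of all genes 6.79% rose and 7.31% fell. The grh call did not hold when any trh null array was dropped (limma adjusted p of 0.0653 to 0.0830). For ovo the limma adjusted p was 0.0509 when trh null replicate 3 was dropped. The summed linear signal of the 5 epidermal markers was 4442 to 6614 in wild type and 6597 to 7258 in trh null arrays. The part of these cells in the rise of pck was not tested.

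None of the 4 measured genes for adhesion proteins passed by its brightest probe set in limma's test, where 14.1% of all genes passed. At an unadjusted p under 0.05 there were 0 of the 4, where 30.4% of all genes passed. These 4 genes are too few to be told apart from those shares. Nrx-IV, Cont and Nrg encode Neurexin IV, Contactin and Neuroglian, which bind one another between cells. Nrx-IV read 11.81, 10.80 and 11.49 in wild type and 10.89, 11.34 and 11.39 in trh null arrays, a difference of -0.16 (95% interval -0.82 to 0.51). Cont read 12.38, 11.56 and 12.14 in wild type and 12.21, 12.24 and 12.29 in trh null arrays (difference 0.22, SE 0.21). In both genes wild type replicate 2 was the lowest of the 6 arrays. Without it the differences were -0.44 for Nrx-IV (limma adjusted p = 0.116) and -0.01 for Cont. Lac, the gene of the GPI-anchored immunoglobulin protein Lachesin, was the steadiest of these, at 12.85, 12.70 and 12.67 in wild type and 12.75, 12.80 and 12.84 in trh null arrays. Its interval ran from -0.14 to 0.26. For Nrg the brightest probe set differed by 0.32 (SE 0.19, limma adjusted p = 0.351), and the next one rose.

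In the cytoplasm the junction is bound by cora, a gene for a FERM-domain protein, vari, a membrane-associated guanylate kinase gene, and yrt, another FERM-domain gene, whose product restrains apical Crumbs. None of these 3 passed limma's test, and 0 did at an unadjusted p under 0.05, beside 14.1% and 30.4% of all genes. The genotypes overlapped for cora (11.42 to 11.96 in wild type, 11.87 to 12.00 in trh null) and for vari (10.07 to 10.62 and 10.32 to 10.48). Their differences were 0.25 (SE 0.14) and 0.08 (SE 0.15). For yrt wild type read 9.67, 8.52 and 9.77 and trh null 10.01, 9.81 and 9.93. The trh null values all lay above wild type, but the difference of 0.60 (SE 0.33, limma adjusted p = 0.302) shrank to 0.20 without wild type replicate 2.

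The basolateral polarity genes scrib, dlg1 and l(2)gl keep apical proteins out of the lateral membrane and are needed to place the junction. They had wide errors. None passed limma's test and 1, scrib, did at an unadjusted p under 0.05, beside 14.1% and 30.4% of all genes. Wild type replicate 2 read 8.75 for dlg1 and 8.74 for l(2)gl, where the other 5 arrays read 9.97 to 10.19 and 10.08 to 10.41. The differences of 0.38 (SE 0.37) and 0.37 (SE 0.44) became -0.07 and -0.18 without that array, and passed in neither fit. The brightest scrib probe set read 9.85, 9.16 and 9.66 in wild type and 10.15, 10.12 and 10.30 in trh null arrays. Its difference of 0.63 (SE 0.18) did not pass (limma adjusted p = 0.0758), and passed without wild type replicate 2 (0.43, limma adjusted p = 0.0180).

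Probe sets of scrib went in opposite directions, whereas the 4 of dlg1 and the 3 of Nrg all had higher means in trh null arrays, and of those 7 the second of Nrg passed. Over the 10 further probe sets of scrib, dlg1, Nrg and mesh, 2 passed, 1 in each direction, beside 11.8% of all probe sets. The third scrib probe set by brightness read 7.70, 7.28 and 7.80 in wild type and 6.40, 6.38 and 6.61 in trh null arrays, so it fell by 1.13 (SE 0.15, limma adjusted p = 0.00747) where the brightest was higher. The fourth differed by -0.86 (limma adjusted p = 0.104), the second by 0.42 (0.0671) and the fifth by 0.26 (0.411). Within each array the brightest minus the third probe set was 1.96 ± 0.17 in wild type and 3.72 ± 0.03 in trh null arrays (SD, n = 3; exact two-sided permutation p = 0.1). The mean over all 5 gave -0.14 (limma adjusted p = 0.648), so no direction can be given for scrib. The second Nrg probe set read 11.77, 11.05 and 11.49 in wild type and 12.11, 12.19 and 12.31 in trh null arrays, a rise of 0.76 (SE 0.18, limma adjusted p = 0.0467). That call held only when wild type replicate 1 or 2 was the array dropped, with adjusted p between 0.0966 and 0.174 for the others, whereas the call for the third scrib probe set held for each of the 6. Within each array it lay 0.31 ± 0.02 below the brightest Nrg probe set in wild type and 0.14 ± 0.02 above it in trh null arrays (SD, n = 3; exact two-sided permutation p = 0.1). The further dlg1 probe sets differed by 0.99 (SE 0.40, limma adjusted p = 0.184, with wild type replicate 2 lowest at 4.70), 0.32 (SE 0.15) and 0.24 (SE 0.09), and the other mesh probe set by 0.03 (SE 0.10). The within-array pairs were chosen after their values were seen, and the transcripts that each probe set matches were not analysed here.

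**Figure D2:**
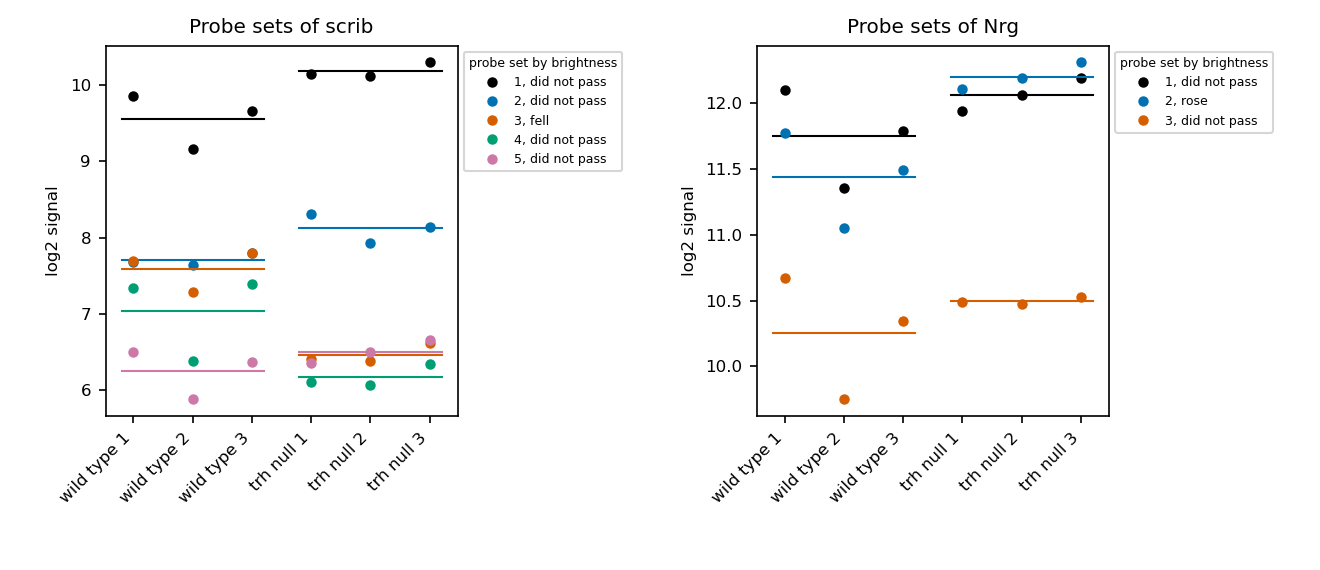
Log2 signal of the 5 probe sets of scrib (left) and the 3 of Nrg (right) on each array; colours number the probe sets by brightness, lines are means of 3 arrays. The third scrib probe set goes from 7.59 to 6.47 while the brightest goes from 9.56 to 10.19, and the second Nrg probe set crosses the first.

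The Ly6 and GPI-anchored genes lay close together. The genes bou, crok, cold and crim encode small Ly6 proteins needed to assemble the junction, and Tsf2 encodes a melanotransferrin, an iron-binding protein of the junction. None of these 5 passed limma's test and 0 did at an unadjusted p under 0.05, beside 14.1% and 30.4% of all genes. None separated the genotypes, where 38.2% of all genes did, and the differences ran from -0.28 for crim to 0.05 for Tsf2. For bou wild type read 11.66, 11.61 and 11.29 and trh null 11.50, 11.50 and 11.54 (95% interval of the difference -0.28 to 0.27). For cold wild type read 11.99, 12.49 and 11.75 and trh null 12.10, 12.08 and 12.05 (95% interval -0.44 to 0.45). The median SD of the group was 0.30 between wild type arrays and 0.03 between trh null arrays. For crok, cold, crim and Tsf2 wild type replicate 2 was the highest of the 6 arrays. Without that array their differences were 0.07, 0.21, -0.15 and 0.12, and none passed.

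Of the tricellular genes M6, which encodes a proteolipid-family membrane protein, rose. It read 10.41, 10.63 and 10.58 in wild type and 10.85, 11.19 and 11.13 in trh null arrays, a rise of 0.51 (SE 0.12, 1.43-fold, limma adjusted p = 0.0409). The M6 call did not hold when wild type replicate 1 or 3 was dropped (limma adjusted p = 0.106 and 0.0837), when trh null replicate 2 or 3 was dropped (0.155 and 0.164), or under the trend and robust prior (0.0593) and cyclic loess (0.0605). Gli, the Gliotactin gene, a neuroligin relative, read 11.75, 12.04 and 11.55 in wild type and 11.35, 11.37 and 11.50 in trh null arrays. The trh null values were all lower, but the difference of -0.37 (SE 0.13) did not pass (limma adjusted p = 0.138). The bark gene, for the large protein also called Anakonda, read 9.00, 7.16 and 8.92 in wild type and 9.00, 9.10 and 9.20 in trh null arrays, where the lowest trh null value was just above the highest of wild type. Its difference of 0.74 (SE 0.48, limma adjusted p = 0.382) was 0.14 without wild type replicate 2.

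The 3 smooth junction genes among the 26 were lower in every trh null array than in every wild type array, as were 19.4% of all genes. Of the 3, 1 passed, beside 14.1% of all genes. A further smooth junction gene, hoka, had overlapping genotypes (difference -0.28, SE 0.22). Tsp2A, a tetraspanin gene, read 10.75, 11.00 and 10.87 in wild type and 10.26, 10.47 and 10.48 in trh null arrays. It fell by 0.47 (SE 0.10, 1.38-fold, limma adjusted p = 0.0362). For mesh, the gene of a large extracellular membrane protein, wild type read 10.77, 10.50 and 10.99 and trh null 10.20, 10.49 and 10.36 (difference -0.40, SE 0.15, limma adjusted p = 0.141). For Ssk (Snakeskin), a gene for a small membrane protein, wild type read 11.70, 11.93 and 11.72 and trh null 11.37, 11.57 and 11.58 (difference -0.28, SE 0.10, limma adjusted p = 0.153). The Tsp2A call held when wild type replicate 2 was dropped, but not for any other array (limma adjusted p between 0.0510 and 0.129), nor under the trend and robust prior (0.0666). Without wild type replicate 2 mesh passed as well (-0.53, limma adjusted p = 0.0179), in a fit where 32.2% of all genes passed. The other, dim probe set of mesh differed by 0.03 (SE 0.10) over all 6 arrays. Of the 2 measured midgut markers neither passed: mex1 differed by -0.37 (SE 0.16) and GATAe by 0.00 (SE 0.19). Their summed linear signal was 4944 to 6209 in wild type and 4072 to 4723 in trh null arrays, and its part in the smooth junction values was not tested.

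**Figure D3:**
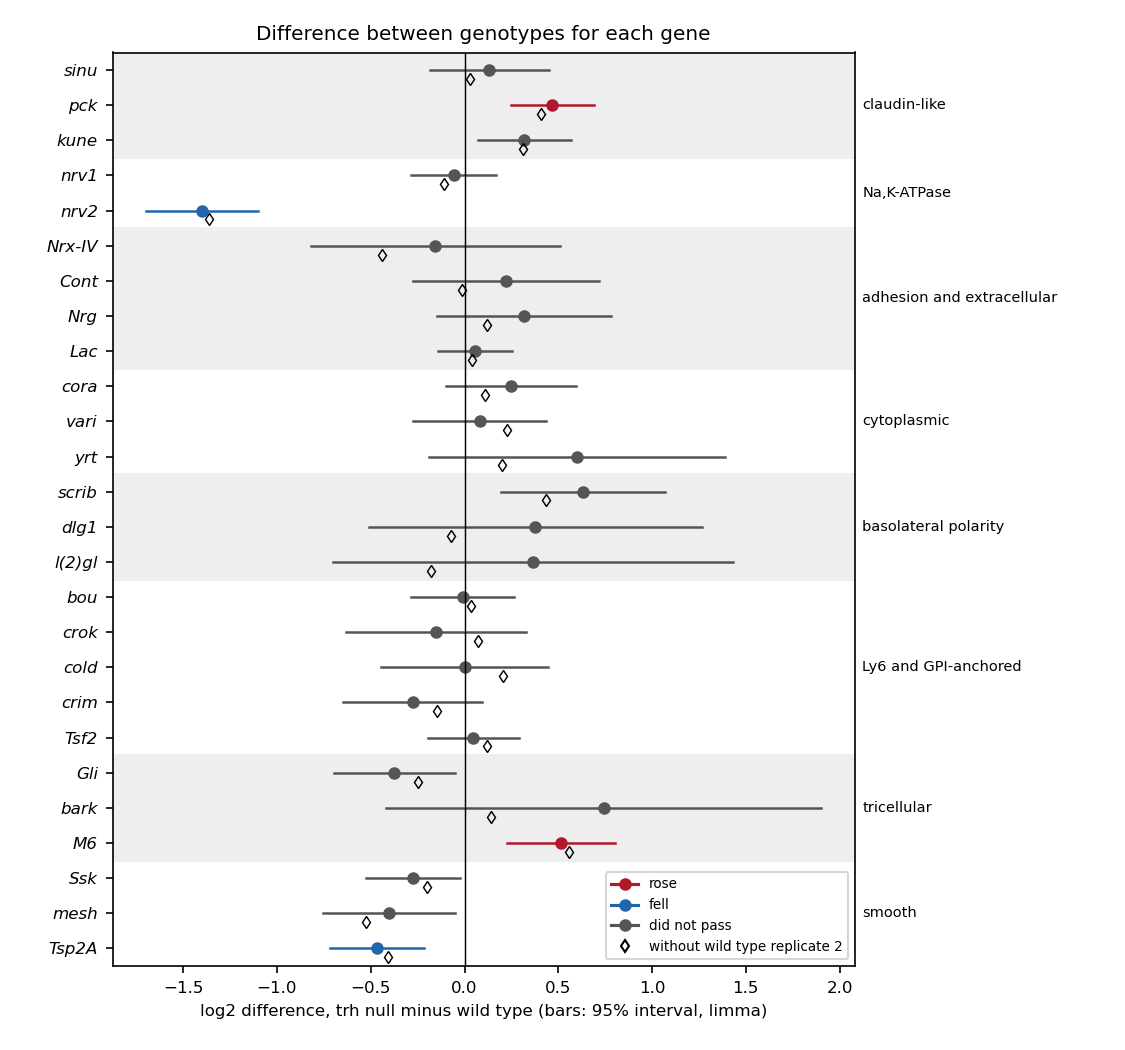
Log2 difference between trh null and wild type for the 26 genes, with 95% intervals from limma; red and blue mark genes that rose and fell, and diamonds give the difference without wild type replicate 2. The nrv2 difference of -1.40 stands alone, Tsp2A, mesh and Ssk of the smooth junction lie between -0.47 and -0.28, and the intervals of bark, l(2)gl and dlg1 are the widest.

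Counted without a test, 11 of the 26 genes had 3 values of one genotype all on one side of the other 3, 6 higher and 5 lower in trh null embryos. That is 42.3%, beside 38.2% of all genes, of which 18.8% were higher and 19.4% lower. Besides the 4 that passed these were kune, yrt, scrib and bark among the higher and Gli, mesh and Ssk among the lower.

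The spread between arrays was uneven. The SD between wild type arrays exceeded that between trh null arrays for 24 of 26 genes, with medians of 0.26 and 0.09, and for 9705 of all 11982 genes, with medians of 0.20 and 0.08. Wild type replicate 2 lay outside the range of the other wild type arrays for 22 of the 26, 13 below and 9 above. It was lower by more than 0.5 on the log2 scale than the mean of the other 2 for 8 genes, and higher by that much for crok and cold. These differences went with the span of the gene on the chromosome. Among the 13 genes with spans above 6437.5 bases its median difference from the other wild type arrays was -0.42, and 10 of 13 were lower. Among the 13 with shorter spans the median was 0.14, and 5 of 13 were lower. Over the 26 genes, which share that array, the correlation with log10 span was -0.60 (Pearson) and -0.67 (Spearman), and over 11893 genes with a known span -0.37 and -0.34. Spans come from the RefSeq table and hold introns, and transcript lengths were not analysed here. Without that array 3 genes rose (pck, M6 and scrib) and 3 fell (nrv2, Tsp2A and mesh), 6 of 26, where 32.2% of all genes passed, 17.4% as higher and 14.8% as lower. The genotypes then did not overlap for 14 of the 26, and for 59% of all genes.

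**Figure D4:**
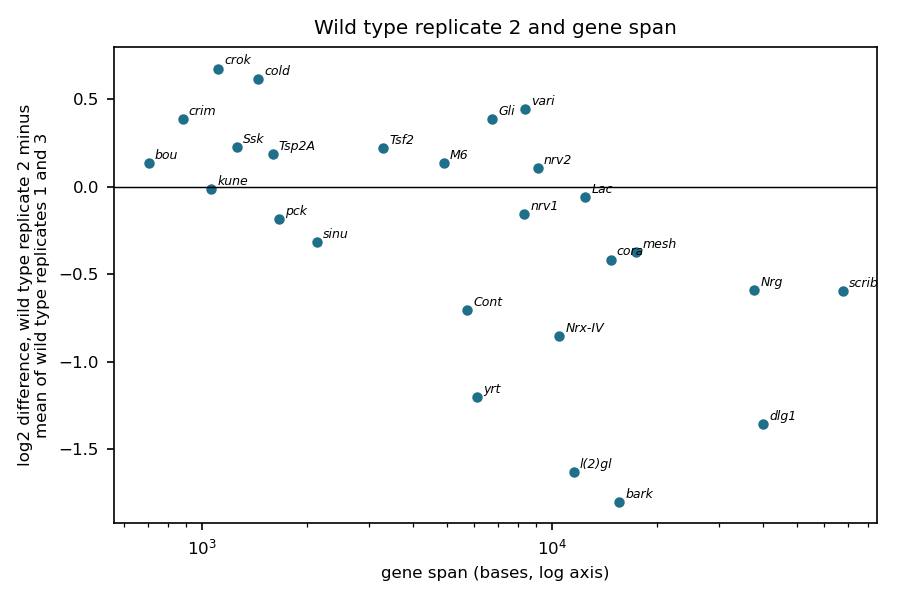
Log2 difference of wild type replicate 2 from the mean of wild type replicates 1 and 3 (vertical axis) against gene span in bases (log axis) for the 26 genes. Short genes such as crok and cold lie at 0.67 and 0.62, and bark, l(2)gl and dlg1 lie between -1.80 and -1.36.

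Of 20 further genes related to the septate junction by role or only by protein family, 17 were measured. Among them grh rose, atilla and wun fell and 14 did not pass. These 3 are 17.6% of the genes measured, near the 14.1% of all genes. The median log2 difference was 0.06. The grh gene encodes Grainyhead, a transcription factor of epithelial genes, and rose from 10.90 ± 0.26 to 11.70 ± 0.05 (SD, n = 3; difference 0.80, SE 0.14, limma adjusted p = 0.0162). The atilla gene, listed as a further Ly6 protein gene, read 10.65, 10.02 and 10.94 in wild type and 9.00, 9.38 and 9.31 in trh null arrays. It fell by 1.31 (SE 0.24, limma adjusted p = 0.0210). The wun gene, for a lipid phosphate phosphatase that tracheal junctions need, fell by 0.57 (SE 0.11, limma adjusted p = 0.0214). The wun2 gene, listed in the same role, went the other way without passing (0.34, SE 0.12, limma adjusted p = 0.128). Its trh null values all lay above those of wild type. None of the 3 calls for grh, atilla and wun held when a trh null array was dropped (limma adjusted p between 0.0653 and 0.102). Dropping wild type replicate 1 gave 0.0646 for atilla and 0.0622 for wun, and dropping wild type replicate 3 gave 0.0592 for wun. At an unadjusted p under 0.05 there were 6 of 17, where 30.4% of all genes passed. The brightest of the others were serp and verm, whose products are chitin deacetylases secreted into the tracheal lumen, and pasi1 and pasi2, genes of junction proteins with 4 membrane spans. Their differences were -0.25 (SE 0.11) for serp, -0.32 (SE 0.09) for verm, 0.27 (SE 0.17) for pasi1 and 0.26 (SE 0.12) for pasi2.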

How the data were processed

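The authors' deposited values were log2 signals of 18952 probe sets on 6 arrays, used as deposited. RMA and Partek are the tools that the submitters' processing notes list, with no version; base 2 was inferred from the range, 3.21 to 14.94. RMA usually equalises the quantiles of arrays, so a change shared by all transcripts can be hidden. Leaving out 183 control probe sets gave 18769, of which 13647 named 1 gene, 402 several and 4720 none in the platform annotation. Genotype came from each sample's label. Differences were tested for every probe set with limma 3.58.1 in R 4.3.3 (lmFit and eBayes, genotype only, Benjamini-Hochberg over all probe sets, threshold 0.05), checked on simulated data. "Rose" and "fell" refer to that threshold in trh null relative to wild type. No filter on low values was applied, and fold changes of dim probe sets are understated. The members and lists were chosen with earlier results of these data known. All members are named, as are list genes that passed and the 4 brightest others. hoka, nrv3 and wun2, and markers, were added to these for comparison. Gene spans and chromosome arms came from the RefSeq table of Release 6 plus ISO1 MT. Promoter and protein sequences were not used here. Figures were drawn with matplotlib 3.10.9 in Python 3.11.15. For arrays the number of replicates, 3 per genotype, limits the precision.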

Additional observations from a re-analysis of the deposited data

How the results depend on the processing

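The 2 genotypes had 3 arrays each, and array signals near background limit dim probe sets such as the lower ones of dlg1 and mesh. The septate junction genes that passed numbered 4 of 26, beside 14.1% of all genes. There were 2 with the trend and robust prior (12.9% of all genes), 7 with array weights (scrib, Gli and mesh were added; 37% of all genes), 2 with cyclic loess (14.1%) and 1 with the replicate number as a block (4.64%); quantile normalization again, median centring, leaving out the 40% dimmest probe sets and averaging the probe sets of a gene each kept pck, nrv2, M6 and Tsp2A (13.8% to 17.3% of all genes). Leaving out 1 array gave 1 to 6, beside 4.46% to 32.2% of all genes, and nrv2 passed in all 14 alternatives. Of 364 differences recomputed (26 genes, 14 alternatives), 319 kept sign and side of the threshold, 20 lost it, 5 gained it and 20 changed sign. The cause of these changes was not tested.

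All probe sets that passed numbered 2219, with 6003 under array weights, 726 with the replicate block and 704 to 5001 with 1 array left out. Of the 17 further junction-related genes 3 passed, with 9 under array weights, 0 with the replicate block and 0 to 8 with 1 array left out. The median difference of the septate junction genes, 0.07, ran from -0.01 to 0.09 with 1 array left out. Same-numbered arrays did not deviate together (correlations of -0.37, -0.06 and -0.05 over 18769 probe sets), so the numbers were not taken as pairs. With that block nrv2 alone passed, and pck, M6 and Tsp2A had limma adjusted p of 0.0932, 0.0644 and 0.0744.

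Sign changes concerned genes whose brightest probe set did not pass. Array weights gave -0.060 for Cont, -0.013 for Lac and -0.11 for l(2)gl, quantile normalization 0.0022 for bou, cyclic loess -0.038 for cold and the mean over probe sets -0.14 for scrib. Chosen after seeing the data, single probe sets of scrib gave -1.13 and -0.86. With 1 array left out, the ranges that crossed 0 were -0.111 to 0.0024 for nrv1, -0.441 to 0.0652 for Nrx-IV, -0.124 to 0.0618 for bou, -0.162 to 0.208 for cold, -0.0147 to 0.398 for Cont, -0.0743 to 0.646 for dlg1, -0.178 to 0.654 for l(2)gl, -0.328 to 0.0743 for crok, -0.0432 to 0.229 for vari and -0.0377 to 0.121 for Tsf2.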
